A study of Mus musculus with 6 samples.

Results

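The genes described are 7 cytokine receptor subunits that belong to, or share a chain with, the common gamma-chain receptor family: Il21r, Il2rg, Il4ra, Il9r, Il2ra, Il2rb and Il13ra1. They were taken by name from the 27179 genes counted in germinal center (GC) B cells, with earlier results of these data known, and all 7 were found. GC B cells are the dividing, antibody-mutating B cells that form clusters in spleen and lymph nodes after immunization. The data were 6 RNA-seq libraries, 3 from WT and 3 from Il21r-/- mice, with 1 library of each genotype on each of days 7, 10 and 14 after immunization. All mice were on a C57BL/6 background and received the hapten-protein conjugate NP-KLH in alum by intraperitoneal injection. Cells were sorted from the spleen as viable NP-binding IgG1+ B220+ CD38- cells that lacked CD138, IgM, IgD and Gr1, so that every library is a class-switched, antigen-binding GC population. By the study's methods, the mice were irradiated Ly5.1 hosts given bone marrow of either genotype, the only exception named being a cell-labelling time course. With Il21r-/- marrow, the blood cells that derive from it, T cells included, lack the receptor and the host's other cells do not, so a difference between genotypes can come from the B cells or from other marrow-derived cells, which the design cannot separate. The sort described held no stain that separates host from donor cells. The age of the mice is not given in the labels. The labels give 1 mouse for each library, whereas the study's methods count several mice of each genotype, so whether a library is a pool is not settled.

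The common gamma chain, encoded by Il2rg, is a signalling subunit that several receptors share. Each receptor adds a private chain that recognises its own cytokine: IL-21R for IL-21, IL-4R alpha for IL-4, IL-9R for IL-9, and the IL-2R beta chain for IL-2 and IL-15, with the IL-2R alpha chain (CD25) raising the affinity for IL-2. IL-13R alpha 1 pairs with IL-4R alpha in place of the gamma chain, which makes a receptor for both IL-4 and IL-13. The gamma chain binds the kinase JAK3 and the private chains mostly JAK1, and the activated receptors phosphorylate STAT proteins, chiefly STAT3 after IL-21, STAT6 after IL-4 and STAT5 after IL-2 or IL-9. In GC, IL-21 and IL-4 are supplied mainly by T follicular helper cells and act on B cell growth, class switching and differentiation.

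The receptors of this class share a short signature near the membrane, the WSXWS box, a run of tryptophan and serine codons with 1 free position in the middle. Its codons were found in the longest complete coding sequence of 6 of the 7 genes (GENCODE transcripts, GRCm38), and in 71 of all 21538 genes with such a sequence, 0.33%. Il2ra, whose product is built from a different fold, held none. The 15 box bases are shown in capitals with 30 bases of spliced coding sequence on either side, 5′ to 3′ on the coding strand, because they are the stretch of sequence that these 6 receptors have in common. The box marks the wider class of receptors and not the gamma-chain family alone.
Il21r (chr7:125628998-125629012, + strand, exon 6 of 9): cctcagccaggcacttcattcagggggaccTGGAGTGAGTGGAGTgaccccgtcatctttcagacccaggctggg
Il4ra (chr7:125571554-125571568, + strand, exon 7 of 11): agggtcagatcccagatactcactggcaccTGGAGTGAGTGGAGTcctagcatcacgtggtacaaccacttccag
Il9r (chr11:32193211-32193225, - strand, exon 6 of 9): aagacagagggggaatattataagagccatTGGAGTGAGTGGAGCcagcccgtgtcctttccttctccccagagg
Il2rg (chrX:101266215-101266229, - strand, exon 5 of 8): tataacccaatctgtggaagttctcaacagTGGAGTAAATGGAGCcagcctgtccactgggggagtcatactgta
Il2rb (chr15:78485763-78485777, - strand, exon 7 of 10): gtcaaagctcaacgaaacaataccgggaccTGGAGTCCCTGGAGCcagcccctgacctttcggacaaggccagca
Il13ra1 (chrX:36149081-36149095, + strand, exon 8 of 11): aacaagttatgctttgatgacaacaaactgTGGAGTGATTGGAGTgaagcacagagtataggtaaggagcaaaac
Of the 15 box positions, 11 held the same base in all 6 genes, and Il21r and its chromosomal neighbour Il4ra had the same box bases throughout. The boxes were located by their amino acid pattern, which fixes the tryptophan codons and limits the serine codons. Much of the sharing thus follows from the search. All 6 boxes lay within a single coding exon.

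The libraries held 21353438 to 27435124 reads counted on genes. Levels are given as edgeR's CPM, the reads on a gene relative to the library total as scaled by TMM factors, and, where genes are compared with each other, as RPKM, which is CPM divided by the transcript length in kilobases. A log2 fold change is positive where the level was higher in WT. Of the 7 genes, 5 passed the limit on low counts and were among the 11005 genes tested. Il2ra and Il13ra1 did not, and are described by their counts. Of 8 GC B cell marker genes, all were tested and none was called between genotypes over 3 days. With day as a block, in which libraries of the same day are compared with each other, 4 were called, Mef2b, Rgs13 and Bcl6 toward WT and Fas toward Il21r-/-. Of the T cell genes below the limit on low counts, Cd3e had at most 2 reads in any library and Cd8a at most 1. The others had more, at 6 to 15 reads for Cd3d, 0 to 7 for Cd3g, 1 to 12 for Cd4 and 3 to 15 for Cd28. Of the other marker lists, the genes called over 3 days were Pax5 of 5 tested B cell genes, Cd5 of 2 tested T cell genes and Cd68 of 3 tested myeloid genes, all with higher levels in Il21r-/-, and 2 of 4 tested plasma cell genes, Xbp1 with the higher level in Il21r-/- and Prdm1 with the higher level in WT. With the block the counts were 4 of 5 for B cells and 4 of 4 for plasma cells, and the same for T cells and myeloid cells. Of all genes tested, 5.92% were called over 3 days and 22.9% with the block. Neither of 2 tested erythroid genes was called, and the 8 myeloid genes summed to 8.46 to 13.9 CPM in WT and 11.7 to 19.1 CPM in Il21r-/-.

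Over the 3 days, 3 of the gamma-chain family genes differed between genotypes. Il21r and Il2rb had the higher levels in WT, and Il9r had the higher level in Il21r-/-. The 3 were called among 5 tested genes, against 5.92% of all genes tested. Il21r is the targeted gene, so its call checks the labels and is not a result about the family. By direction, the share of all genes called was 1.4% toward WT (2 of the receptor genes) and 4.52% toward Il21r-/- (1 of them). In the same 3 of the 5 tested genes the CPM ranges of the genotypes did not overlap, as in 18.4% of all genes tested. Il4ra and Il2rg, the receptor chain for IL-4 and the shared chain, showed much smaller differences, with higher levels in Il21r-/- on days 10 and 14.

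On single days the calls were fewer in all genes and nearly the same in the receptors, with Il21r, the targeted gene, among them on each day. On day 7, 2 receptor genes were called against 1.07% of all genes, Il21r toward WT (0.2% of all genes) and Il9r toward Il21r-/- (0.872%). On day 10, 3 were called against 3.1%, Il21r and Il2rb toward WT (0.5%) and Il9r toward Il21r-/- (2.6%). On day 14, the same 3 were called against 3.28%, in the same directions (0.727% and 2.55%).

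**Figure D1:**
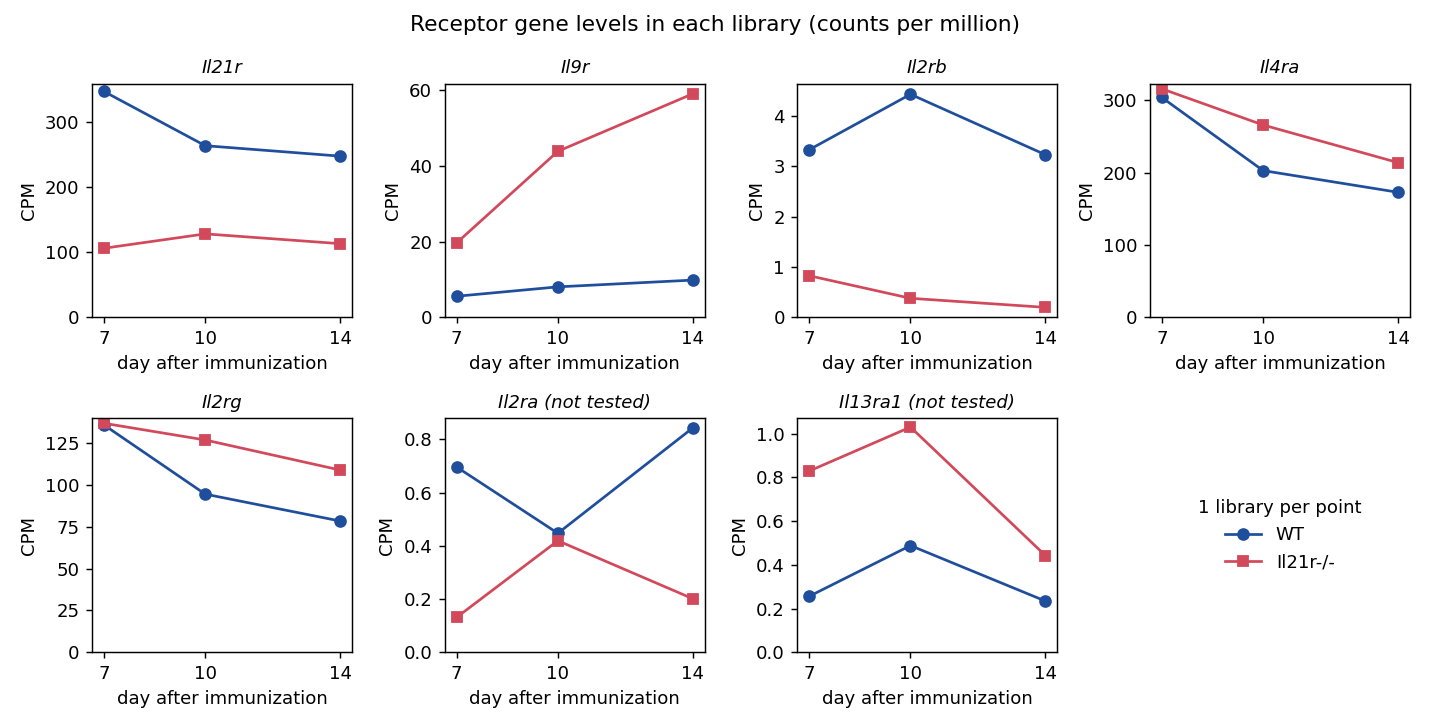
Level of each of the 7 receptor genes (vertical axis, CPM, starting at 0 and scaled to each gene) against the day after immunization (horizontal axis), with 1 point for each library, WT as circles and Il21r-/- as squares. Il9r reaches 59.1 CPM in the Il21r-/- library of day 14 while the WT libraries stay at or under 9.88, and Il2rb is under 1 CPM in all 3 Il21r-/- libraries.

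Il21r (Entrez 60504, chr7:125603252-125634397 in GRCm38) is the targeted gene and the check of the labels. Its counts were 9436, 6470 and 5267 in WT on days 7, 10 and 14, and 2424, 3349 and 2807 in Il21r-/-. In CPM the WT libraries stood at 346, 263 and 247 and the Il21r-/- libraries at 106, 128 and 113, so that every Il21r-/- library was below every WT library. The log2 fold change over 3 days was 1.29 (SE 0.135, adjusted p = 0.00137, edgeR's quasi-likelihood test). The transcript was therefore reduced and not lost: the Il21r-/- libraries kept 30.6%, 48.5% and 45.7% of the WT level of the same day. Counts are summed over all exons, and which part of the gene was removed is not given in the sources used here, so the remaining reads could not be assigned to the deleted or the retained part. The 3 single-day log2 fold changes were 1.71 on day 7 (SE 0.254, adjusted p = 4.82e-08), 1.04 on day 10 (SE 0.254, adjusted p = 0.0034) and 1.13 on day 14 (SE 0.255, adjusted p = 0.00106) by edgeR's likelihood ratio test. Each of these compares 1 library with 1 library and borrows its error from all 6.

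Il9r (Entrez 16199, chr11:32187544-32205283) encodes the ligand-binding chain for IL-9, a cytokine made mainly by T helper cells. It had 153, 199 and 211 reads in WT on days 7, 10 and 14, and 451, 1151 and 1471 in Il21r-/-. These counts are 5.61, 8.09 and 9.88 CPM in WT against 19.7, 43.9 and 59.1 CPM in Il21r-/-. The lowest Il21r-/- library was above the highest WT library. On the same day the Il21r-/- level was 3.51 times the WT level on day 7, 5.42 times on day 10 and 5.98 times on day 14. Over 3 days the log2 fold change was -2.30 (SE 0.197, adjusted p = 0.000646, edgeR's quasi-likelihood test), the smallest adjusted p among the tested receptors of the family. The single-day values were -1.81 (SE 0.361, adjusted p = 0.000205), -2.44 (SE 0.352, adjusted p = 1.35e-08) and -2.58 (SE 0.351, adjusted p = 1.42e-09) by edgeR's likelihood ratio test. The gene's span overlaps the pseudogene Gm12109, which has no row in the count table, and the strand setting of the counting is not stated, so reads of the overlap cannot be divided between them.

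Il2rb (Entrez 16185, chr15:78479256-78511621) encodes the beta chain used by the IL-2 and IL-15 receptors, best known from T cells and NK cells. Its counts were low but one-sided, at 91, 109 and 69 reads in WT and 19, 10 and 5 in Il21r-/- on days 7, 10 and 14. In CPM these were 3.33, 4.43 and 3.23 against 0.829, 0.381 and 0.201. Every WT library was above every Il21r-/- library, and the WT level was 4.02, 11.6 and 16.1 times that of Il21r-/- on the 3 days. The log2 fold change over 3 days was 3.02 (SE 0.367, adjusted p = 0.00277, edgeR's quasi-likelihood test). It was the largest fold change of the 5 tested receptors in either direction. On day 7 the difference, 2.0 (SE 0.607), did not pass the threshold (adjusted p = 0.0741, edgeR's likelihood ratio test), whereas on day 10 it was 3.52 (SE 0.681, adjusted p = 1.69e-05) and on day 14 it was 3.97 (SE 0.826, adjusted p = 1.22e-05). With a linear day term kept in the single-day fit, the day 7 difference was 2.07 and was called (adjusted p = 0.025, edgeR's likelihood ratio test). With DESeq2 the day 7 difference of Il2rb was 2.10 and was not called. It was also not called with no limit on low counts or with no genes left out. The 7 NK marker genes summed to 0.488 to 1.25 CPM in WT and 1.68 to 2.05 CPM in Il21r-/-. Most of the Il21r-/- sum was Prf1, at 1.48, 1.26 and 1.04 CPM on days 7, 10 and 14, and Ncr1 had no read in any library. The 8 T cell marker genes summed to 87.6 to 122 CPM in WT and 85.1 to 119 CPM in Il21r-/-, nearly all of it Lck, and 2 of the 8 had at most 3 reads in every library. The part of such cells in the Il2rb result was not tested.

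**Figure D2:**
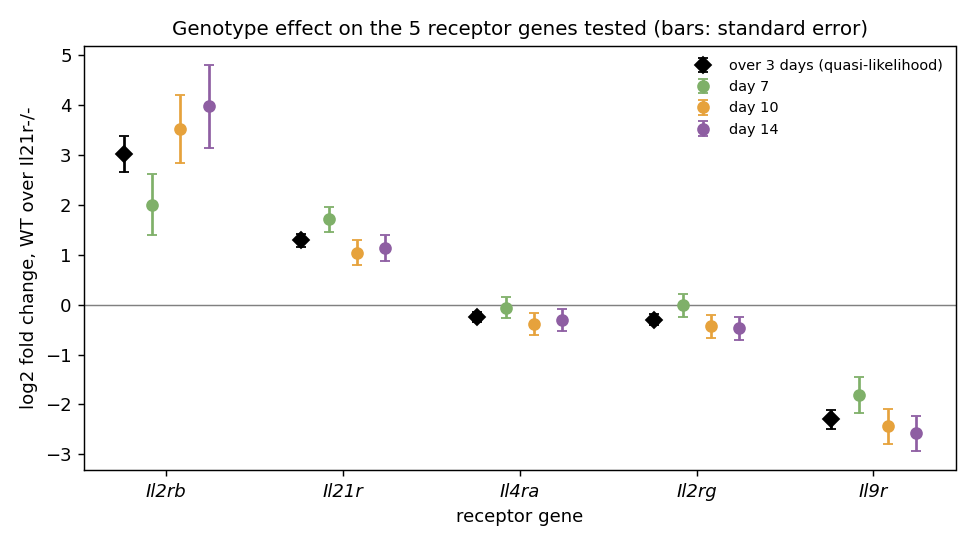
Log2 fold change of WT over Il21r-/- (vertical axis) for the 5 tested receptor genes (horizontal axis), over 3 days as diamonds (n = 3 libraries a genotype) and on single days as circles (1 library a genotype), with bars of 1 standard error. Il2rb at 3.02 and Il21r at 1.29 lie above 0 and Il9r at -2.30 below it, while Il4ra and Il2rg lie within 0.5 of 0 at every point.

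Il4ra (Entrez 16190, chr7:125552271-125579474) encodes the IL-4 receptor chain that GC B cells use to respond to T follicular helper cells. Its CPM was 304, 203 and 173 in WT and 316, 266 and 214 in Il21r-/- on days 7, 10 and 14. The Il21r-/- library was the higher of the pair on each day, but the ranges of the genotypes overlapped. Over 3 days the log2 fold change was -0.25 (SE 0.107, adjusted p = 0.226, edgeR's quasi-likelihood test). The same value of -0.25 had an SE of 0.0795 when day was fitted as a block, and was then called (adjusted p = 0.0211, edgeR's quasi-likelihood test).

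Il2rg (Entrez 16186, chrX:101264385-101268255), the common gamma chain itself, followed the same course. Its CPM was 136, 94.6 and 78.5 in WT and 137, 127 and 109 in Il21r-/-. The genotypes started level on day 7, and the WT libraries of days 10 and 14 lay below all 3 Il21r-/- libraries. The log2 fold change over 3 days was -0.30 (SE 0.114, adjusted p = 0.174, edgeR's quasi-likelihood test) and, with day as a block, -0.30 (SE 0.0897, adjusted p = 0.0151). With the block, all 5 tested receptors were called, in a fit that called 22.9% of all genes. Of the 5, 2 were called toward WT (9.33% of all genes), the targeted gene Il21r among them, and 3 toward Il21r-/- (13.6%). On none of the single days did Il4ra or Il2rg pass the threshold, with adjusted p between 0.379 and 0.999 in edgeR's likelihood ratio test.

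Il2ra (Entrez 16184, chr2:11642792-11693194) and Il13ra1 (Entrez 16164, chrX:36112108-36171262) were close to the limit of detection. Il2ra, which encodes CD25, had 19, 11 and 18 reads in WT and 3, 11 and 5 in Il21r-/- on days 7, 10 and 14. Its CPM averaged 0.662 ± 0.2 (SD, n = 3) in WT and 0.25 ± 0.15 (SD, n = 3) in Il21r-/-, and the ranges did not overlap, although on day 10 the genotypes differed by only 0.447 against 0.419 CPM. An exact permutation test of the CPM, two-sided, gave p = 0.1, the smallest value that 3 against 3 libraries allow. Il13ra1 had 7, 12 and 5 reads in WT and 19, 27 and 11 in Il21r-/-, or 0.326 ± 0.14 and 0.766 ± 0.298 CPM (SD, n = 3), with overlapping ranges (p = 0.2, exact permutation test, two-sided). When all 16909 genes with any read were fitted, neither was called, with a log2 fold change of 1.37 for Il2ra (adjusted p = 0.13) and -1.21 for Il13ra1 (adjusted p = 0.141) in edgeR's quasi-likelihood test. Each span overlaps a long noncoding RNA gene that has no row in the table, Gm39760 for Il2ra and Gm42406 for Il13ra1. No difference in either gene passed a test.

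Per length, the order of the receptor transcripts differed between genotypes at the top. SDs here are over the 3 days of a genotype and so include the change with time. In WT, Il21r led with 109 ± 20.4 RPKM (SD, n = 3), followed by Il2rg with 63.8 ± 18.2 and Il4ra with 44.5 ± 13.4. Il21r did not overlap with Il2rg. The ranges of Il2rg and Il4ra overlapped across days, but Il2rg was the higher in 3 of 3 libraries. In Il21r-/-, Il2rg led with 77.1 ± 8.84 RPKM (SD, n = 3), then Il4ra with 52.1 ± 9.94 and Il21r with 44.2 ± 4.28, the last pair overlapping with Il4ra higher in 2 of 3 libraries. Il9r came next in both genotypes, at 2.55 ± 0.696 RPKM in WT and 13.2 ± 6.43 in Il21r-/- (SD, n = 3). Il2rb followed in WT with 1.36 ± 0.247 RPKM, and in Il21r-/-, at 0.174 ± 0.12 (SD, n = 3), it overlapped with both Il13ra1 and Il2ra.

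Because these private chains can pair with the gamma chain, RPKM ratios to Il2rg of the same library were also taken. They describe transcripts, not surface protein. The ratio of Il21r to Il2rg was 1.58, 1.72 and 1.94 in WT on days 7, 10 and 14, and 0.478, 0.62 and 0.641 in Il21r-/-. That of Il4ra stayed within a narrow band, at 0.709, 0.678 and 0.699 in WT and 0.731, 0.661 and 0.624 in Il21r-/-. The ratio of Il9r was 0.0216, 0.0447 and 0.0657 in WT and 0.0752, 0.18 and 0.284 in Il21r-/-. The highest WT ratio of Il9r, on day 14, was thus below the lowest Il21r-/- ratio, on day 7. The sum of Il21r, Il4ra, Il9r and Il2rb over Il2rg was 2.32 to 2.73 in WT and 1.29 to 1.55 in Il21r-/-. This sum includes the targeted gene, whose own ratio was 1.58 to 1.94 in WT and 0.478 to 0.641 in Il21r-/-. The lower sum in Il21r-/- is thus not a result about the other private chains. As shares of the summed RPKM of the 7 genes, Il21r made up 47.4 to 52.0% in WT and 20.9 to 25.1% in Il21r-/-, and Il9r made up 0.65 to 1.76% in WT and 3.28 to 11.1% in Il21r-/-. A lower level of the targeted gene Il21r by itself raises the shares of the other genes, that of Il9r included. The share of Il2rg, for example, was 26.8 to 30.1% in WT and 39.2 to 43.7% in Il21r-/-.

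**Figure D3:**
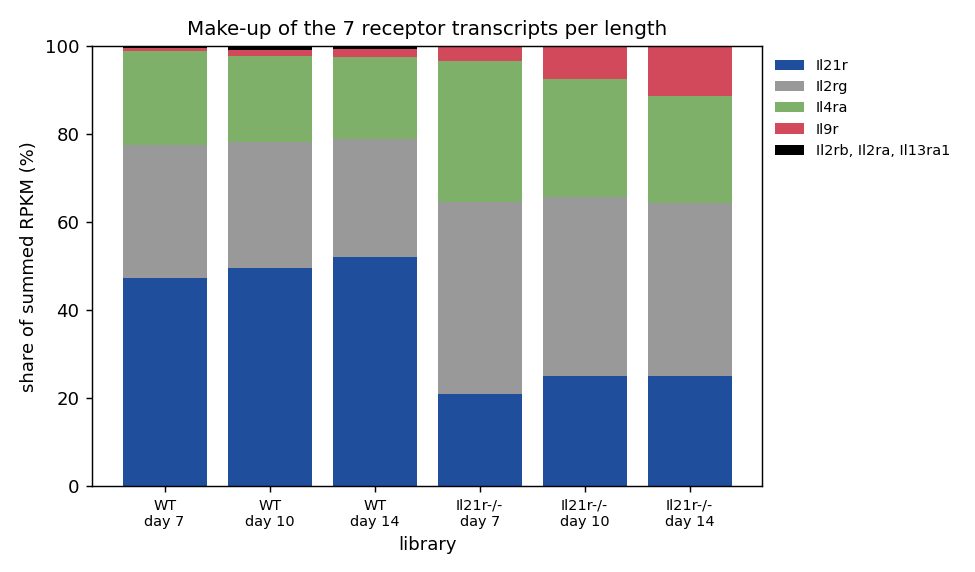
Share of each receptor gene in the summed RPKM of the 7 genes (vertical axis, %) in each of the 6 libraries (horizontal axis), as stacked bars with the 3 least abundant genes joined. Il21r takes 47.4 to 52.0% of the WT bars and 20.9 to 25.1% of the Il21r-/- bars, and the Il9r band widens to 11.1% in Il21r-/- on day 14. A lower level of the targeted gene Il21r by itself widens the bands of the other genes.

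The change with time was tested as a linear effect of day across both genotypes. Of the 5 tested receptors, 2 changed, against 4.43% of all genes: Il9r rose (1.07% of all genes rose) and Il4ra fell (3.36% fell). Il9r rose by 0.17 log2 units a day (SE 0.0341, adjusted p = 0.0317, edgeR's quasi-likelihood test), with the later library the higher in both genotypes at each step. Il4ra changed by -0.10 log2 units a day (SE 0.0185, adjusted p = 0.0262, edgeR's quasi-likelihood test) and was lower on each later day in both genotypes. Il2rg, at -0.08 a day (SE 0.0199), was near the threshold (adjusted p = 0.0598, edgeR's quasi-likelihood test). Both calls rest on the full set of libraries: without any 1 of the 4 libraries of days 7 and 14, neither Il9r nor Il4ra was called, with daily changes of 0.11 to 0.21 and -0.11 to -0.07 over all libraries left out in turn.

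Whether the course with time differed between genotypes was tested as the product of genotype and day. None of the 11005 genes was called in edgeR's quasi-likelihood test, with 118 genes at an unadjusted p under 0.05, and none was called by DESeq2. Among the receptors, the slope of the difference of WT over Il21r-/- was 0.28 log2 units a day for Il2rb (SE 0.115, unadjusted p = 0.039, adjusted p = 1.0, edgeR's quasi-likelihood test). For Il9r the slope of the difference was -0.10 a day (SE 0.0662, unadjusted p = 0.16, edgeR's quasi-likelihood test). That the differences in Il9r and Il2rb were larger on day 14 than on day 7 is thus a description of the 6 libraries, and did not pass a test.

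The other genes of the pathway were described from lists. The cytokines were hardly present in the sorted cells: none of the 8 ligand genes (Il2, Il4, Il7, Il9, Il13, Il15, Il21 and Tslp) reached the limit on low counts, and 3 of them, Il9, Il21 and Tslp, had no read in any library. Il15 was the most abundant, with 9, 4 and 8 reads in WT and 9, 12 and 21 in Il21r-/- on days 7, 10 and 14. Of the remaining subunits of the family, Crlf2, the TSLP receptor chain, was tested. Its CPM was 24.5, 18.7 and 19.2 in WT and 34.6, 27.3 and 39.3 in Il21r-/-, without overlap. The log2 fold change over 3 days was -0.70 (SE 0.171, adjusted p = 0.0495, edgeR's quasi-likelihood test). Il15ra had 8 to 21 reads in WT and 10 to 17 in Il21r-/-, Il7r had 4 reads in the WT library of day 7 and none elsewhere, and Il13ra2 had no read.

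Downstream of the receptors stand kinases, STAT proteins and feedback regulators. Of 21 listed genes, 18 were tested and 2 were called over 3 days, both higher in WT, with a median log2 fold change of -0.04 against -0.01 over all genes. Of all genes tested, 5.92% were called, 1.4% toward WT. The 2 were Jak3, the kinase held by the gamma chain, at 58.6, 56.7 and 49.7 CPM in WT and 31.6, 41.6 and 33.8 in Il21r-/- (log2 fold change 0.62, SE 0.132, adjusted p = 0.0296, edgeR's quasi-likelihood test), and Ptpn1, a phosphatase that acts on JAK and STAT proteins (0.51, SE 0.103, adjusted p = 0.0242). Jak3 thus had its lower levels in the genotype in which Il2rg had the same or higher levels. With day as a block 6 of the 18 were called, 3 in each direction, where 22.9% of all genes were called. Stat6 (-0.18, adjusted p = 0.46) and Stat3 (0.32, adjusted p = 0.19) were not called by edgeR's quasi-likelihood test over 3 days, and Stat3 was called with the block (adjusted p = 0.00458). Socs3, a feedback inhibitor induced by STAT3 and named here after its values were seen, was below the limit, with 26, 25 and 12 reads in WT and 1, 1 and 0 in Il21r-/-.

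Genes known to be induced through STAT6 and through STAT3 were each listed, and no test was made of the difference between the lists. Over all genes, 5.92% were called, and 22.9% with day as a block. Of 17 listed targets of STAT6, the route used by Il4ra, 14 were tested, 6 were called and all 6 were higher in Il21r-/- (median log2 fold change -0.64). None of the 14 had a higher fitted level in WT. The called genes were Ighe (IgE heavy chain, -2.85), Ccl22 (a chemokine, -4.74), Fcer2a (the low-affinity IgE receptor CD23, -1.54), H2-DMa (a peptide-loading chain, -0.69), Bcl2l1 (the survival protein Bcl-xL, -0.98) and Il4i1 (an amino acid oxidase, -1.21), with adjusted p from 6.87e-05 to 0.0139 in edgeR's quasi-likelihood test. Ccl22 stood at 0.989, 0.488 and 1.12 CPM in WT and 17.8, 31.4 and 20.1 CPM in Il21r-/- on days 7, 10 and 14. With day as a block, 11 of the 14 were called, all higher in Il21r-/-. The study reports that Il21r-/- GC hold a larger share of light zone cells. The light zone is the GC part enriched for T follicular helper cells. The study also found light zone genes enriched among genes higher in Il21r-/-. Cd86, which is on this list, encodes one of its light zone markers. The sort described held no stain that separates the zones. The part of this zone difference in the STAT6 list and the receptor results was not tested. Of 16 listed targets of STAT3, the route used by Il21r, 13 were tested and 1 was called, Prdm1 (the plasma cell regulator Blimp-1), which was higher in WT (log2 fold change 1.64, SE 0.325, adjusted p = 0.0216, edgeR's quasi-likelihood test). The median of the STAT3 list was 0.08, and with the block 5 were called, of which 4 had the higher level in WT. The listed STAT3 targets below the limit on low counts were Socs3, whose reads are given above, Il10 and Maf. Il10 had 5, 3 and 4 reads in WT and 1, 1 and 1 in Il21r-/-, and Maf 2, 2 and 1 in WT and 5, 0 and 5 in Il21r-/-. Of 6 genes of naive and marginal zone B cells, all tested, 4 were called, all higher in Il21r-/- (among them Ccr7 at -1.81, S1pr1 at -1.31 and Klf2 at -1.02). Ighd and Cr2, which define those cells, were not called, at -0.13 (adjusted p = 0.84) and -0.16 (adjusted p = 0.672) in edgeR's quasi-likelihood test. The 6 genes summed to 156 to 329 CPM in WT and 218 to 362 CPM in Il21r-/-, most of it Cr2, which alone stood at 273 CPM in WT and 213 CPM in Il21r-/- on day 7. The part of such cells in these results, Il9r and Il4ra included, was not tested.

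Cytokine receptors outside the family, of the same structural classes, gave the setting for the changes of the family. Of 34 listed, 16 were tested and 8 were called over 3 days, all higher in Il21r-/-, and 1 of the 16 had a higher fitted level in WT (median log2 fold change -0.58). Of all genes tested, 5.92% were called, 4.52% toward Il21r-/- and 1.4% toward WT. The block called 22.9% of all genes, 13.6% toward Il21r-/-. With day as a block, 10 of the 16 were called, all higher in Il21r-/-: Csf2ra (adjusted p = 0.0224), Il6ra (0.0428) and Ifnar2 (0.0201) were added and Il10ra was lost (adjusted p = 0.0352 without and 0.157 with the block, edgeR's quasi-likelihood test). The 6 with the smallest adjusted p were Lifr, the receptor for leukemia inhibitory factor (-3.17, adjusted p = 0.000188), Ifngr2 of the interferon gamma receptor (-0.93, adjusted p = 0.00427), Il5ra (-1.12, adjusted p = 0.00997), Ifnlr1 of the interferon lambda receptor (-0.83, adjusted p = 0.0143), Il10rb (-0.89, adjusted p = 0.0171) and Il27ra (-0.99, adjusted p = 0.0254), all from edgeR's quasi-likelihood test. Lifr stood at 2.09, 1.38 and 0.656 CPM in WT and at 20.4, 13.4 and 4.42 CPM in Il21r-/- on days 7, 10 and 14, lower on each later day in both genotypes, where Il9r was higher. The direction of Il9r was thus the direction of every called receptor outside the family. It was also that of 497 of the 651 genes called over 3 days. Il2rb and Il21r, the targeted gene, were the receptors called in the other direction. No test was made of the difference between the lists.

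**Figure D4:**
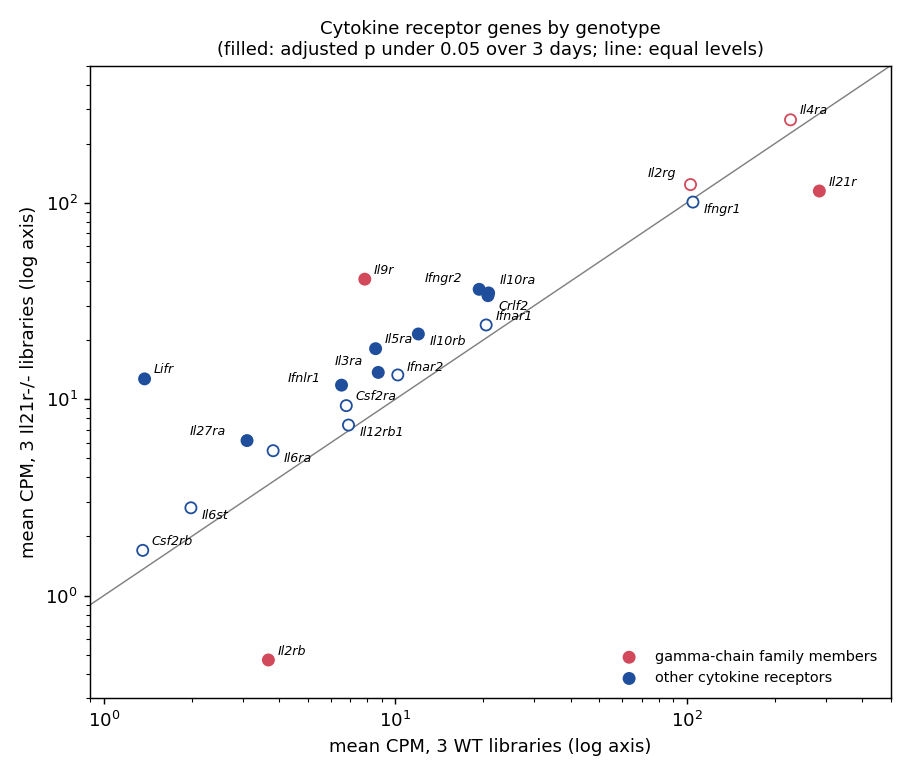
Mean CPM in the 3 Il21r-/- libraries (vertical axis, log) against mean CPM in the 3 WT libraries (horizontal axis, log) for the tested receptors of the gamma-chain family and other cytokine receptors (Crlf2 among the latter), filled where the gene was called over 3 days, with the line of equal levels. Il21r and Il2rb lie below the line, and Il9r, Lifr and the other called receptors lie above it.

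Il21r and Il4ra are neighbours, 23.8 kb apart on chromosome 7, so the genes around the targeted locus were examined. Of the 5 tested genes on either side (Arhgap17, Lcmt1, Kdm8, Nsmce1 and Il4ra at lower coordinates, Gtf3c1, D430042O09Rik, Xpo6, Sbk1 and Lat at higher ones), 1 of 10 was called over 3 days, where 5.92% of all genes were, and none on any single day in edgeR's tests. The 1 was Lat, an adaptor protein gene, with a log2 fold change of -0.87 (SE 0.188, adjusted p = 0.0321, edgeR's quasi-likelihood test). Xpo6, Sbk1 and Lat lay 467, 614 and 729 kb from Il21r, and Lcmt1 and Arhgap17 lay 2170 and 2230 kb from it. Il4ra, the nearest at lower coordinates, was at -0.25, and Gtf3c1, 6.56 kb away at higher coordinates, was at 0.42 (adjusted p = 0.259). With day as a block, which called 22.9% of all genes, 5 of the 10 were called in edgeR's quasi-likelihood test. Toward WT these were Gtf3c1 (0.44, adjusted p = 0.00131) and Kdm8 (0.50, adjusted p = 0.00197). Toward Il21r-/- they were Il4ra (-0.25, adjusted p = 0.0211), Sbk1 (-0.39, adjusted p = 0.0188) and Lat (-0.86, adjusted p = 0.000442).

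The promoters of the receptor genes were searched for the STAT motif TTCNNNGAA in the 250 bases before a listed RefSeq start of each gene (GRCm38.p6). It reads the same on both strands and was held by 7.02% of 32851 promoters. A form with 1 more free base in the middle, the spacing preferred by STAT6, was held by 5.85%. Neither was present in the 6 members with a promoter entry, and Il2rb had no entry. The listed start was not always the outer end of the gene span given above. The Il9r window (chr11:32200280-32200529) lay inside that span, and the Il21r window (chr7:125603179-125603428) ran into it. For these genes the bases before the outer end were thus not searched, or not all of them. The result says only that these letters are not in these windows.

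The pattern of each tested receptor over the 6 libraries was compared with that of every other tested gene by Pearson's r of log2 CPM, a description in which all genes share the same 6 libraries. The genes most like Il21r were Trib1 (r = 0.989), Gnb1 (0.982) and Hgsnat (0.980). Hgsnat, a lysosomal acetyltransferase, stood at 23.4, 20.8 and 15.7 CPM in WT and 3.84, 3.81 and 4.62 CPM in Il21r-/- on days 7, 10 and 14. The genes most like Il9r were Galnt17 (0.999), Cd80 (0.998) and Glul (0.997). Cd80, a co-stimulatory ligand, stood at 2.05, 3.01 and 3.84 CPM in WT and 6.5, 12.7 and 17.8 CPM in Il21r-/-, higher on each later day in both genotypes, as Il9r was. The genes most like Il2rb were Bzw2 (0.996), Crip2 (0.995) and Morrbid (0.993). Morrbid, a long noncoding RNA, stood at 7.44, 6.87 and 6.18 CPM in WT and 2.88, 1.68 and 1.16 CPM in Il21r-/-. Naglu, Calhm2 and Pptc7 (all 0.997) were nearest to Il2rg, and Etnk1 (0.998), Pfkfb3 (0.998) and Bhlhe40 (0.997) to Il4ra. Among the receptors themselves, Il2rg and Il4ra ran together (r = 0.973, n = 6 libraries), Il9r ran against Il2rb (-0.972) and Il21r (-0.893), and Il9r had little relation to Il4ra (0.032).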

How the data were processed

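The authors mapped single-end reads to the mm10 genome using Rsubread and summed technical replicates. FeatureCounts with the RefSeq annotation built into Rsubread gave gene-level read counts, which were deposited as whole numbers with no normalization. Base calling used CASAVA 1.8.2. The strand and multi-mapping settings are not given in the sources used here. The single-library counts and the joint table were identical (0 values differed). Of 27179 Entrez identifiers, 25275 took a symbol from RefSeq (GRCm38.p6) and 18 from GENCODE, and 1886 had none.

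Genotype and day came from the labels. Genes with an average log2 CPM of at least 0 were tested with edgeR 4.0.16 (R 4.3.3, limma 3.58.1), leaving out Y-linked, Xist and Ig variable genes as the study did, which left 11005. Genotype over 3 days, a linear effect of day and their product were tested with the quasi-likelihood test. Genotype on single days was tested with the likelihood ratio test, dispersions coming from genotype plus linear day (biological coefficient of variation 13.1%). P-values were adjusted by Benjamini-Hochberg over all genes tested, with a threshold of 0.05. With 1 library per genotype and day, they measure the spread between these libraries. Log2 CPM, as deviations from the genotype's mean over the days, correlated between same-day libraries at 0.64, 0.413 and 0.645 on days 7, 10 and 14. These deviations still hold the linear change with day, so they do not measure pairing beyond the main fit. Each day gave 1 library of each genotype, and the fit with day as a block is given where it changes a call or a list's count.

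The 7 receptor genes were given in every library. From the other lists, genes called over 3 days (at most 6 a list, smallest adjusted p first) and the remaining family subunits were named, with the 5 tested genes on either side of Il21r and the 3 genes of most similar pattern. The receptor genes and the lists were chosen with earlier results of these data known, and the lists come from general knowledge. The values of 1 marker gene are not reported here. Alternatives were DESeq2 1.42.0, its size factors, no limit on low counts, no genes left out, a linear day term on single days, the day block, and leaving out each library.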

Additional observations from a re-analysis of the deposited data

How the results depend on the processing

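Over 3 days, Il21r, Il9r and Il2rb kept their direction and call under every alternative run, with log2 fold changes of 1.13 to 1.37, -2.54 to -2.09 and 2.69 to 3.58 when each library was left out in turn. The number of receptor genes called, 3, became 5 with day as a replicate block, which changed no other call among the receptor genes, and was 3 without any 1 library. For all genes, the 651 calls became 991 with no limit on low counts and 2519 with the block, and ranged from 132 (without the WT library of day 14) to 2165 (without the Il21r-/- library of day 10), with 284 without the Il21r-/- library of day 14 and 342 without the WT library of day 10. For the effect of day, the 488 calls became 870 with DESeq2 and 869 with no limit on low counts, and ranged from 5 (without the WT library of day 14) to 2177 (without the Il21r-/- library of day 10), with 6 without the WT library of day 7 and 120 and 115 without the Il21r-/- libraries of days 7 and 14, and with 0 to 3 receptor genes called. Il2rg was called for day with DESeq2 (adjusted p = 0.0174), with no limit on low counts (0.0199) and without the Il21r-/- library of day 10 (0.0065), and the slope of Il21r ran from -0.06 to 0.00, the latter without the WT library of day 7. On day 7, the 118 calls became 32 with DESeq2 and ranged from 104 to 220 (without the Il21r-/- library of day 10), with 2 to 3 receptor genes, Il2rb being called when the Il21r-/- library of day 10 or 14 was kept out of the dispersion estimate. Il2rb on day 7 was also called with a linear day term kept, and under no other alternative. Il2rg on day 7 turned from -0.01 to 0.00 with no limit on low counts. On day 10, the 341 calls became 132 with DESeq2 and 722 with a linear day term kept. On day 14, the 361 calls became 94 with DESeq2, where Il21r (1.07, adjusted p = 0.0884) was not called, and ranged from 341 to 704 (without the Il21r-/- library of day 10). Of the values of single receptor genes under the alternatives, 241 stayed on their side of the threshold, 8 came to pass it, 9 ceased to, and 2 changed sign around 0. With 1 library per genotype and day, a single-day difference rests on 2 libraries, and Il2ra and Il13ra1 had too few reads for the limit on low counts.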
